A study of Mus musculus with 25 samples.

Results

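Genes that answered differently to an inhibitor of the epidermal growth factor receptor (EGFR) and to removal of heparin-binding EGF-like growth factor (HBEGF) were sought in cultured mouse astrocytes. For each gene the change after HBEGF withdrawal was taken away from the change with the EGFR inhibitor, both on the scale log2(RPKM + 1), where RPKM is the read count scaled to gene length and library size. This difference of the changes is positive where the inhibitor left a gene higher, relative to its own control, than withdrawal did. It passed the test (limma, Benjamini-Hochberg adjusted p below 0.05, here called) for 253 of 13850 genes, or 1.83%. Of these, 176 were higher (1.27%) and 77 lower (0.556%).

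The study sequenced RNA of astrocytes from C57BL/6J mouse cortex, captured on a HepaCAM antibody and cultured, in 25 libraries. The comparison uses 10 of them. Cells that received the EGFR inhibitor on day 2 in vitro gave 3 libraries and cells that received DMSO in its place gave 3. Cells without HBEGF, which was withdrawn on the day of preparation, gave 2 libraries, and cells with added HBEGF gave 2. The identity and dose of the inhibitor, the day of harvest, the age of the mice and the origin of the replicates are not stated in the labels. The p-values therefore cover only how far libraries scatter within their groups, a scatter that may be technical. That scatter was pooled over all 25 libraries, not taken from these 10 alone. Each treatment has a control of its own, but experiment and treatment cannot be told apart wherever the 2 experiments are set against each other, and the inhibitor was added later than HBEGF was withdrawn.

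HBEGF is a membrane-anchored growth factor whose shed form binds EGFR and its relative ErbB4. The activated receptor signals through RAS and the kinases RAF, MEK and ERK and through PI3K and AKT, and ERK induces transcription factors such as Etv5, the cyclin Ccnd1 and its own inhibitors of the Dusp and Spry families. In neural precursors and young astrocytes EGFR signalling is known for promoting proliferation and an immature state, and serum-free astrocyte cultures are commonly grown with HBEGF. An inhibitor of the receptor also stops signals from other EGFR ligands that the cells make themselves, whereas withdrawal takes away the added ligand.

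Most genes that answered to both treatments answered in the same direction. With the inhibitor 5337 genes (38.5%) were called against DMSO, and after withdrawal 4511 (32.6%) were called against HBEGF. Of the 3250 called in both, 3205 had the same sign, 979 up and 2226 down, and in 49 of these the sizes also differed by the test of the difference. Across the 13850 genes the changes correlated at Pearson's r = 0.611 (Spearman's rho = 0.616), and at r = 0.764 over the 2354 genes that averaged 5 RPKM or more. Genes are not independent replicates, and the coefficients only describe these libraries. A call in one treatment alone was seldom a difference: of 2087 genes called with the inhibitor and not after withdrawal the difference was called for 84 (4.02%), and of 1261 called after withdrawal and not with the inhibitor for 77 (6.11%).

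**Figure D1:**
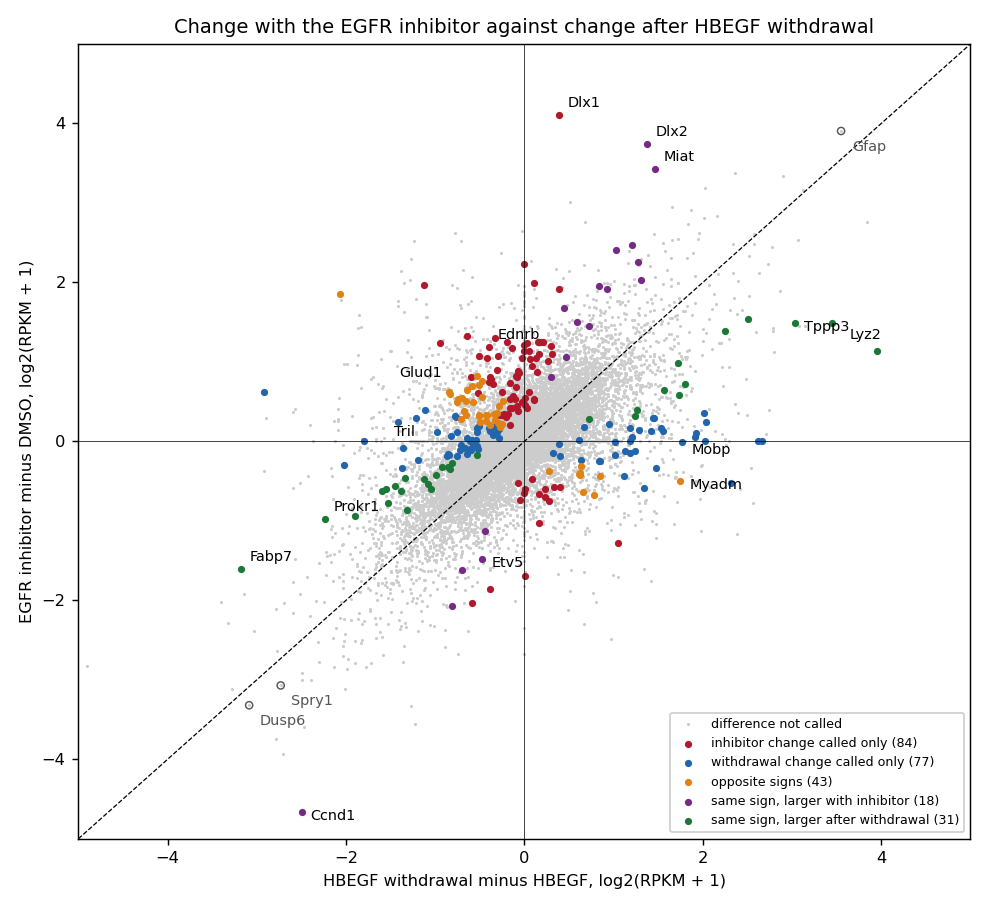
Change in log2(RPKM + 1) with the EGFR inhibitor (vertical axis) against the change after HBEGF withdrawal (horizontal axis) for 13850 genes. Grey points are genes whose difference was not called, coloured points the 253 called genes by kind, the dashed line marks equal change, and Gfap, Dusp6 and Spry1 are circled as genes close to that line.

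The 253 genes fell into kinds by their own changes. The inhibitor change alone was called in 84, the withdrawal change alone in 77, and both changes in all others. Of those others, 43 had opposite signs, 31 changed in the same direction but further after withdrawal, and 18 in the same direction but further with the inhibitor. In all 253 the 9 inhibitor-minus-DMSO library differences lay on one side of the 4 withdrawal-minus-HBEGF ones, which was so for 18.0% of all genes tested. These library differences reuse the same libraries and the values that gave the calls, so they are no further evidence for them. The DMSO and HBEGF controls differed in 79 genes (0.57%) and the inhibitor and withdrawal groups in 1474 (10.6%). Among the 253, the treated ends differed and the controls did not in 202, the controls alone differed in 20, both ends in 5 and neither in 26.

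Features of whole libraries bear on these counts. Ribosomal RNA of the mitochondrion took 23.4 ± 1.77% of reads with the inhibitor and 18.7 ± 0.237% with DMSO (SD, n = 3 each), and 28.9 ± 1.31% after withdrawal and 17.7 ± 0.733% with HBEGF (SD, n = 2 each). The median difference over all tested genes was 0.081, and 0.144 over genes of at least 5 RPKM, and after median-of-ratios scaling these were 0.008 and 0.030. That scaling gave 104 higher and 114 lower genes, and 181 of the 253 were called under both. HBEGF replicate 1 stood apart from replicate 2: the summed level of 53 mitosis genes was 133 RPKM in it and 430 RPKM in replicate 2, against 64.8 to 72.8 RPKM after withdrawal. Without it 108 genes were called. Reads counted to genes ran from 5029700 to 8220799 in the 10 libraries.

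The summed level of 30 astrocyte markers was 1253 to 1290 RPKM with the inhibitor and 352 to 426 RPKM with DMSO, and 951 to 1070 RPKM after withdrawal and 365 to 450 RPKM with HBEGF. Of the 26 tested markers 1, Slc4a4, was called in the difference (3.8%, against 1.83% of all genes). The median difference was 0.226, against 0.081 over all genes. Gfap, the intermediate filament of mature and reactive astrocytes, averaged 66.1 ± 4.78 RPKM with the inhibitor and 3.48 ± 0.324 RPKM with DMSO (SD, n = 3 each), and 61.8 ± 2.37 RPKM after withdrawal and 4.52 ± 1.82 RPKM with HBEGF (SD, n = 2 each). Its difference was 0.36 with a 95% interval from -0.91 to 1.62 (adjusted p = 0.83). In bulk RNA, fewer cells of a type and less RNA per cell cannot be told apart. Genes that overlap another annotated gene are uncertain, as no source used here says whether reads were counted by strand. This holds for 128 of the 253, among them Dlx1, Miat, Ccnd1, Bhlhe40, Dusp1, Tril, AW047730, Lxn, Gpd1, Acadl, Myadm, Ptms, Vasn, B2m, Mobp, Mbp, Zmynd10, Gas6, Ace, Lhx2 and Pdgfra.

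Several genes of neuronal progenitors were raised more by the inhibitor than by withdrawal. Dlx1 and Dlx2, neighbouring homeobox genes that direct the development of inhibitory interneurons, were near absent with DMSO and rose with the inhibitor. Dlx1 (chr2:71528113-71533981, plus strand, GRCm38) was at 20.7, 18.6 and 18.9 RPKM with the inhibitor and at 0.188, 0.102 and 0.249 RPKM with DMSO. It was at 4.79 and 3.76 RPKM after withdrawal and at 5.56 and 1.45 RPKM with HBEGF. The inhibitor libraries lay far above all others, while withdrawal and HBEGF overlapped and the HBEGF libraries were unlike each other. All DMSO libraries lay below both HBEGF libraries, so the control end also contributed to the difference. The difference was 3.72 ± 0.80 on the log2 scale (SE, adjusted p = 0.022). The call was lost without HBEGF replicate 1 (adjusted p = 0.116), withdrawal replicate 1 (0.0544) or withdrawal replicate 2 (0.0629), and over all alternatives the adjusted p ran from 0.0098 to 0.12.

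Dlx2 had 14.8, 12.5 and 13.4 RPKM with the inhibitor and 0.142, 0.0448 and 0.0727 RPKM with DMSO. It had 4.48 and 3.09 RPKM after withdrawal and 2.19 and 0.0489 RPKM with HBEGF. It rose in both treatments, and the difference was 2.37 ± 0.58 (SE, adjusted p = 0.044). That call was not firm: it was lost in 17 of the alternatives, with adjusted p from 0.0089 to 0.26, and without any single library except HBEGF replicate 2. Of the 10 tested genes on a list of the Dlx and interneuron lineage, these 2 were called higher (1.27% of all genes) and none lower, all 10 rose with the inhibitor and 5 after withdrawal, and the median difference was 0.569. Neither was called without HBEGF replicate 1.

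Of 14 tested proneural and intermediate progenitor genes, 5 were called higher (35.7%, against 1.27% of all genes) and none lower, and the median difference was 0.557 against 0.081 over all genes. Miat (chr5:112213228-112229395, minus strand), a long noncoding RNA of the developing nervous system, had 30.7, 30.2 and 29.1 RPKM with the inhibitor and 1.88, 2.16 and 1.64 RPKM with DMSO. It had 7.87 and 11 RPKM after withdrawal and 2.72 and 2.74 RPKM with HBEGF. Both treatments raised it, 15.8-fold with the inhibitor and 3.45-fold after withdrawal, and none of the 4 groups overlapped another. The difference was 1.96 ± 0.31 (SE, adjusted p = 0.0028) and was called under every alternative run.

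Myt1, a zinc finger factor of neuronal differentiation, rose with the inhibitor only. It was at 2.56, 2.78 and 2.42 RPKM with the inhibitor and at 0.461, 0.584 and 0.498 RPKM with DMSO, and at 0.493 and 0.626 RPKM after withdrawal and 0.887 and 0.695 RPKM with HBEGF. The difference was 1.44 ± 0.22 (SE, adjusted p = 0.0022), called under each alternative that tested the gene. Neurog2, which drives neurogenesis of excitatory lineages, averaged 4.9 ± 0.384 RPKM with the inhibitor and 0.115 ± 0.0153 RPKM with DMSO (SD, n = 3 each), and 2.23 ± 1.68 RPKM after withdrawal and 0.475 ± 0.162 RPKM with HBEGF (SD, n = 2 each). Its difference was 1.37 ± 0.30 (SE, adjusted p = 0.024, 0.0011 to 0.18 over the alternatives). Its withdrawal libraries differed widely, at 1.04 and 3.42 RPKM, and the call was lost without 6 of the 10 libraries, namely DMSO replicate 3, inhibitor replicates 1 and 3, both HBEGF replicates and withdrawal replicate 1.

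Sox11, a factor of newborn neurons, was lower after withdrawal and higher with the inhibitor. It had 37.9, 39.5 and 43.1 RPKM with the inhibitor and 32.1, 32.5 and 31.4 RPKM with DMSO, and 18 and 21.1 RPKM after withdrawal and 27.8 and 28.3 RPKM with HBEGF. The groups did not overlap within either experiment, and the difference was 0.82 ± 0.15 (SE, adjusted p = 0.0081, 0.0023 to 0.054 over the alternatives). The fifth gene, outside the naming rule and given to complete the count, was the Notch ligand Dll3 (difference 1.07, adjusted p = 0.024, up to 0.13 without HBEGF replicate 1). Insm1, a zinc finger factor of basal progenitors, rose in both treatments and was not called in the difference (1.01, 95% interval 0.23 to 1.79, adjusted p = 0.17). Without HBEGF replicate 1, Sox11, Miat and Myt1 of these 5 were still called.

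**Figure D2:**
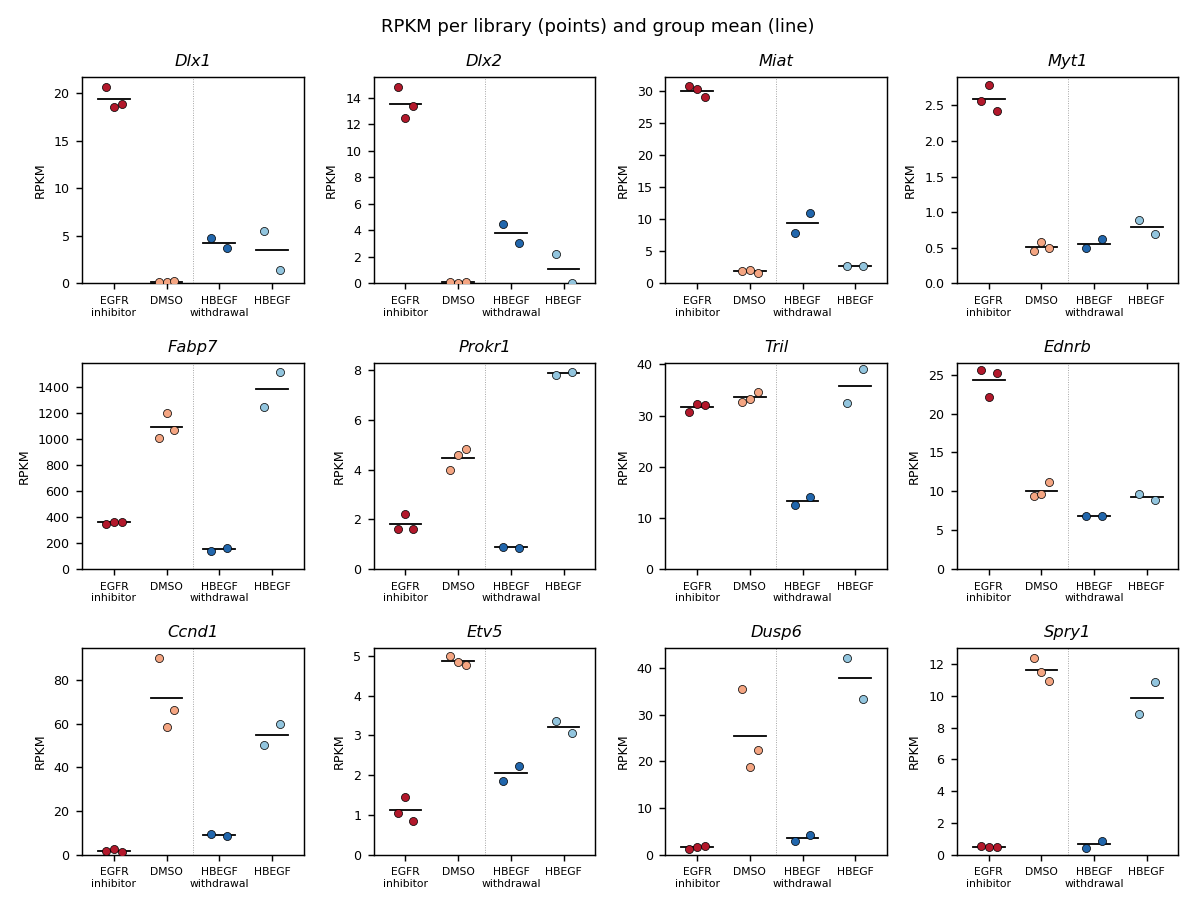
RPKM of 12 genes in each of the 10 libraries (points) with the group mean (line), the inhibitor left of DMSO and withdrawal left of HBEGF, on axes that start at 0. Dlx1, Dlx2, Miat and Myt1 are highest with the inhibitor, Fabp7 and Prokr1 lowest after withdrawal, and Dusp6 and Spry1 are lower than their controls in both experiments.

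The stretches before the transcription start are shown for 3 genes, Dlx2, the endothelin receptor gene Ednrb and the prokineticin receptor gene Prokr1, since these answered in 3 ways: a larger rise with the inhibitor, a rise with the inhibitor only, and a larger fall after withdrawal. Each is the 200 bases upstream of the RefSeq start on GRCm38.p6, written 5′ to 3′ on the strand of the gene, with motif matches in capitals. They lie at chr2:71546755-71546954 (Dlx2), chr14:103843702-103843901 (Ednrb) and chr6:87590744-87590943 (Prokr1), all on the minus strand, and none overlaps an annotated exon.
Dlx2: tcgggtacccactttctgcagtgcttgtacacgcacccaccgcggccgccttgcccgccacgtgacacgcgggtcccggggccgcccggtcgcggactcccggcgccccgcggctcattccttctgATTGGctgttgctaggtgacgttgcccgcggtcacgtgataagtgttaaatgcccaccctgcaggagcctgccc
Ednrb: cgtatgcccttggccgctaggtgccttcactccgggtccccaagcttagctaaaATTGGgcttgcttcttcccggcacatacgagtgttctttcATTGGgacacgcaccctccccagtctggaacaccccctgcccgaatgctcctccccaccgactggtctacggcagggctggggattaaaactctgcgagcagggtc
Prokr1: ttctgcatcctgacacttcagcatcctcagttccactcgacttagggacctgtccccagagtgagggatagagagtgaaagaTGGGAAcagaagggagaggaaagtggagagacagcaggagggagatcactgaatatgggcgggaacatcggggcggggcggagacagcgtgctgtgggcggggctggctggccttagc
The motifs searched, on both strands, were the ETS motif CCGGAAG, the AP-1 motif TGANTCA, the cyclic AMP response element TGACGTCA, the proneural E-box CAGCTG, the RBPJ motif TGGGAA of Notch signalling, the NFI motif TTGGCA, the TATA motif TATAAA and the CCAAT box CCAAT. Capitals mark 1 CCAAT box, read as ATTGG, in Dlx2, 2 in Ednrb and 1 RBPJ motif in Prokr1, while the other motifs had no match. Of 32851 RefSeq windows of this length 29.35% hold a CCAAT box, 17.32% the RBPJ motif, 10.86% the E-box, 9.96% TATAAA, 9.56% the NFI motif, 6.29% the ETS motif, 5.48% the AP-1 motif and 1.47% the cyclic AMP response element.

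Of 18 tested ETS factors and other ERK outputs, 13 fell and 1 rose with the inhibitor, and 11 fell and 2 rose after withdrawal. Etv5 was the single call in the difference among them (5.6%, against 1.83% of all genes). The cyclin gene Ccnd1, from the list of G1 regulators, also fell further with the inhibitor. Ccnd1 (chr7:144929931-144939925, minus strand), the D-type cyclin that carries mitogen signals into the cell cycle, had 1.75, 2.40 and 1.39 RPKM with the inhibitor and 90.1, 58.4 and 66.3 RPKM with DMSO. It had 9.44 and 8.35 RPKM after withdrawal and 50.2 and 59.8 RPKM with HBEGF. The controls overlapped, and every inhibitor library lay below both withdrawal libraries. The falls were 38.8-fold with the inhibitor and 6.18-fold after withdrawal, a difference of -2.17 ± 0.42 (SE, adjusted p = 0.012). The call was lost without HBEGF replicate 1 (adjusted p = 0.0629) or withdrawal replicate 1 (0.0520), and the adjusted p ran from 0.0053 to 0.080 over all alternatives. Of 16 tested regulators of G1 this was the single call (6.2%, against 1.83% of all genes), and the list's median difference was -0.01.

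Etv5, an ETS factor induced by ERK, had 1.05, 1.44 and 0.852 RPKM with the inhibitor and 4.99, 4.85 and 4.78 RPKM with DMSO. It had 1.86 and 2.22 RPKM after withdrawal and 3.37 and 3.06 RPKM with HBEGF. It fell in both, and further with the inhibitor, by a difference of -1.01 ± 0.16 (SE, adjusted p = 0.0031, 2.9e-05 to 0.060 over the alternatives). Every DMSO library lay above both HBEGF libraries, and every inhibitor library below both withdrawal libraries. The control end thus contributed to the Etv5 difference as well as the treated end. Bhlhe40, a basic helix-loop-helix repressor tied to the circadian clock, averaged 6.92 ± 0.579 RPKM with the inhibitor and 32.6 ± 5.83 RPKM with DMSO (SD, n = 3 each), and 8.47 ± 0.866 RPKM after withdrawal and 16 ± 5.11 RPKM with HBEGF (SD, n = 2 each). Its difference of -1.26 ± 0.24 (SE, adjusted p = 0.012, 0.0027 to 0.12 over the alternatives) lay at the control end, as DMSO and HBEGF differed (adjusted p = 0.012) and the treated groups did not (adjusted p = 0.39). The call was lost without HBEGF replicate 1 (adjusted p = 0.0716) or withdrawal replicate 1 (0.0549).

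Of 14 tested feedback inhibitors of ERK, 10 fell and none rose with the inhibitor, and 8 fell and 1 rose after withdrawal. Dusp6, a phosphatase of ERK, had 1.29, 1.64 and 1.79 RPKM with the inhibitor and 35.5, 18.7 and 22.4 RPKM with DMSO, and 2.91 and 4.29 RPKM after withdrawal and 42.3 and 33.5 RPKM with HBEGF. Its falls, 16.2-fold and 10.5-fold, gave a difference of -0.23 with a 95% interval from -1.26 to 0.79 (adjusted p = 0.88). Spry1, an inhibitor of receptor tyrosine kinase signalling, fell 23.2-fold with the inhibitor and 15.4-fold after withdrawal, a difference of -0.34 (95% interval -1.21 to 0.54, adjusted p = 0.76). Those intervals still allow changes that differ by more than 1 on the log2 scale.

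Dusp1, a stress-induced phosphatase of MAP kinases, was the one of these 14 called in the difference (7.1%, against 1.83% of all genes). It had 5.98, 7.90 and 4.73 RPKM with the inhibitor and 5.83, 6.20 and 4.57 RPKM with DMSO, and 14.9 and 14.2 RPKM after withdrawal and 5.48 and 4.25 RPKM with HBEGF. Withdrawal alone raised it, above every other library, and the difference was -1.29 ± 0.26 (SE, adjusted p = 0.016, 0.0015 to 0.10 over the alternatives). The call was lost without withdrawal replicate 1 (adjusted p = 0.0568) or HBEGF replicate 2 (0.0642). The 18 ETS and other ERK output genes had a median difference of -0.199, against 0.081 over all genes. Among 20 immediate early genes Klf4 alone was called (5%, against 1.83% of all genes). Its difference was -0.98 (adjusted p = 0.040), and -0.88 without HBEGF replicate 1. That call was lost without any single library except withdrawal replicate 1.

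The receptor and its ligands were not called in the difference in any of 7 tested members. Egfr itself had 3.59, 3.38 and 3.54 RPKM with the inhibitor and 5.86, 6.68 and 7.10 RPKM with DMSO, and 2.01 and 2.06 RPKM after withdrawal and 3.6 and 5.06 RPKM with HBEGF. It fell 1.87-fold and 2.13-fold, a difference of 0.06 (95% interval -0.47 to 0.58, adjusted p = 0.95). Hbegf fell 7.45-fold with the inhibitor and 5.97-fold after withdrawal, a difference of 0.29 (95% interval -1.28 to 1.85, adjusted p = 0.91). Its control libraries scattered, at 15, 3.09 and 3.24 RPKM with DMSO and 19.2 and 7.33 RPKM with HBEGF.

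Of 26 tested genes of radial glia and immature astrocytes, 5 were called higher (19.2%, against 1.27% of all genes) and none lower, with a median difference of 0.249 against 0.081 over all genes. The 5 were Fabp7, Sox11, Ptprz1, Lhx2 and Ednrb. Lhx2, given to complete the count, lost its call without 6 of the 10 libraries, with adjusted p up to 0.15 over the alternatives. Fabp7 (chr10:57784881-57788450, plus strand), the brain fatty acid-binding protein of radial glia, had 349.0, 364.6 and 362.5 RPKM with the inhibitor and 1011, 1202 and 1068 RPKM with DMSO. It had 139.2 and 164.1 RPKM after withdrawal and 1247 and 1517 RPKM with HBEGF. It fell 3.05-fold with the inhibitor and 9.11-fold after withdrawal, and no group overlapped another. The difference was 1.58 ± 0.22 (SE, adjusted p = 0.0014) and was called under every alternative run.

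Ednrb, the endothelin B receptor of glia, rose with the inhibitor only. It was at 25.6, 22.1 and 25.2 RPKM with the inhibitor and at 9.39, 9.69 and 11.1 RPKM with DMSO, and at 6.77 and 6.84 RPKM after withdrawal and 9.64 and 8.90 RPKM with HBEGF. The difference was 1.59 ± 0.30 (SE, adjusted p = 0.011, 0.0037 to 0.053 over the alternatives), and the call was lost without HBEGF replicate 1 (adjusted p = 0.0532). Ptprz1, a receptor phosphatase of progenitors and astrocytes, fell after withdrawal, where it averaged 7.6 ± 0.675 RPKM against 21.7 ± 6.11 RPKM with HBEGF (SD, n = 2 each). With the inhibitor it averaged 15.1 ± 0.407 RPKM against 19.3 ± 1.05 RPKM with DMSO (SD, n = 3 each). That difference of 1.04 (adjusted p = 0.019, 0.0057 to 0.093 over the alternatives) was lost after median-of-ratios scaling (adjusted p = 0.0515) and without withdrawal replicate 1 (0.0754) or HBEGF replicate 2 (0.0867).

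Tril, Prokr1, Slc4a4, AW047730 and Bcan fell after withdrawal, while with the inhibitor Prokr1 fell less, Bcan rose and the other 3 were not called. Tril (chr6:53815468-53820830, minus strand), an accessory protein of toll-like receptors, had 30.8, 32.2 and 32.0 RPKM with the inhibitor and 32.7, 33.2 and 34.7 RPKM with DMSO. It had 12.5 and 14.0 RPKM after withdrawal and 32.5 and 39.0 RPKM with HBEGF. The withdrawal libraries alone were low, and the difference was 1.28 ± 0.17 (SE, adjusted p = 0.0013). Prokr1, a receptor for prokineticins, had 1.6, 2.21 and 1.6 RPKM with the inhibitor and 4.0, 4.59 and 4.84 RPKM with DMSO, and 0.906 and 0.867 RPKM after withdrawal and 7.84 and 7.96 RPKM with HBEGF. It fell 2.49-fold and 8.91-fold, a difference of 1.27 ± 0.18 (SE, adjusted p = 0.0015), in which the controls also differed (adjusted p = 0.018). Both genes were called under every alternative run.

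Slc4a4, the sodium bicarbonate cotransporter of astrocytes, had 0.923, 0.932 and 0.952 RPKM with the inhibitor and 1.20, 1.35 and 1.28 RPKM with DMSO. It had 0.436 and 0.413 RPKM after withdrawal and 2.39 and 2.12 RPKM with HBEGF. All 4 groups were apart, and the widest gap was between withdrawal and HBEGF. DMSO lay below HBEGF and the inhibitor above withdrawal, so the control end contributed to the difference as well as the treated end. The difference was 0.96 ± 0.15 (SE, adjusted p = 0.0033), called under each alternative that tested it. The uncharacterized gene AW047730 fell 6.05-fold after withdrawal, at 1.34 and 1.81 RPKM against 10.8 and 8.24 RPKM with HBEGF. With the inhibitor it had 4.81, 6.00 and 5.58 RPKM against 6.03, 8.19 and 6.64 RPKM with DMSO, and the difference was 1.73 ± 0.25 (SE, adjusted p = 0.0014). Bcan, the proteoglycan brevican, averaged 18.5 ± 0.103 RPKM with the inhibitor and 14.5 ± 0.368 RPKM with DMSO (SD, n = 3 each), and 8.80 ± 2.50 RPKM after withdrawal and 14.2 ± 0.483 RPKM with HBEGF (SD, n = 2 each). Its difference of 0.99 (adjusted p = 0.016, 0.0034 to 0.086 over the alternatives) was lost without HBEGF replicate 1 (adjusted p = 0.0698) or withdrawal replicate 1 (0.0825).

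**Figure D3:**
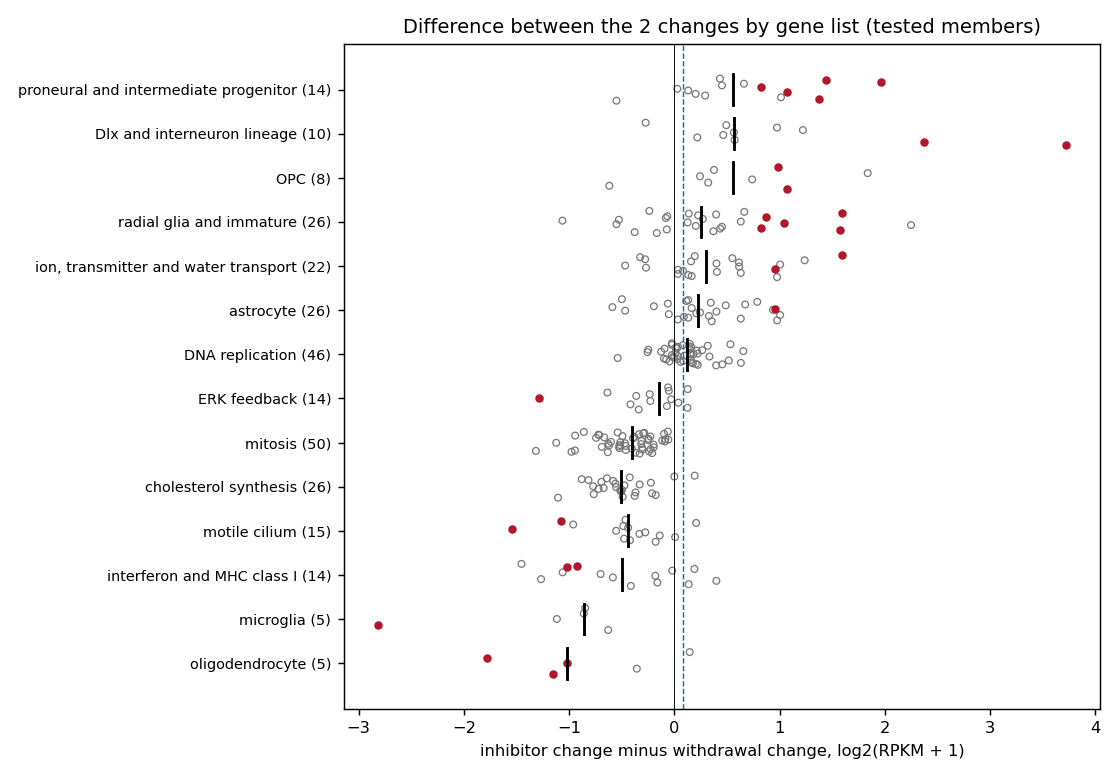
Difference between the inhibitor change and the withdrawal change, in log2(RPKM + 1), for the tested members of 14 gene lists, with the number tested in brackets. Filled points were called, open points were not, black bars are list medians and the dashed line is the median over all genes, 0.081. All 50 mitosis genes lie below 0 with none called, and HBEGF replicate 1 was a low control for their summed level.

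Of the 43 genes with opposite changes, 34 rose with the inhibitor and fell after withdrawal, and 9 did the reverse. None of 20 tested glycolysis genes or 55 tested genes of oxidative phosphorylation was called in the difference, with medians of -0.111 and 0.008. Glud1, mitochondrial glutamate dehydrogenase, had 29.5, 25.8 and 28.8 RPKM with the inhibitor and 14.6, 17.6 and 18.2 RPKM with DMSO. It had 11.7 and 12.7 RPKM after withdrawal and 17.4 and 18.1 RPKM with HBEGF. The controls overlapped and the treated groups lay on either side of them, a difference of 1.22 ± 0.22 (SE, adjusted p = 0.0083) called under every alternative run. Gpd1, the cytosolic glycerol phosphate dehydrogenase, rose 1.96-fold with the inhibitor, to 7.45 ± 0.421 RPKM against 3.80 ± 0.280 RPKM with DMSO (SD, n = 3 each). It fell 1.69-fold after withdrawal, to 1.68 ± 0.587 RPKM against 2.84 ± 0.469 RPKM with HBEGF (SD, n = 2 each), and the difference was 1.35 ± 0.24 (SE, adjusted p = 0.0078, 0.0036 to 0.054 over the alternatives).

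Lxn, the carboxypeptidase inhibitor latexin, had 10.7, 11.7 and 13.3 RPKM with the inhibitor and 6.58, 6.35 and 6.89 RPKM with DMSO, and 8.02 and 8.55 RPKM after withdrawal and 13.1 and 10.7 RPKM with HBEGF. Here the controls differed too (adjusted p = 0.014), the inhibitor libraries overlapped those with HBEGF, and the difference was 1.23 ± 0.19 (SE, adjusted p = 0.0025), called under every alternative run. Igip, Cd1d1 and Arrdc4, an arrestin domain protein that answers to glucose, made up the rest of the top 6 by the smaller change, with differences of 1.25, 1.27 and 1.06 (adjusted p = 0.0075, 0.0078 and 0.011). Arrdc4 was no longer called without HBEGF replicate 1 (adjusted p = 0.0532). Chosen after their values were seen, Acadl and Slc25a20, which serve mitochondrial fatty acid oxidation, also rose with the inhibitor and fell after withdrawal (differences 0.99 and 0.74, adjusted p = 0.0028 and 0.0083). No list of fatty acid oxidation genes was counted, so these genes do not speak for that process. Slc25a20 was no longer called without HBEGF replicate 1 (adjusted p = 0.0502).

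In the reverse direction Myadm (chr7:3289080-3300442, plus strand), a myeloid-associated membrane protein also found in other cells, stood out. It had 2.95, 3.83 and 3.74 RPKM with the inhibitor and 5.05, 5.53 and 5.40 RPKM with DMSO, and 9.53 and 10.8 RPKM after withdrawal and 1.49 and 3.40 RPKM with HBEGF. The fall with the inhibitor was 1.52-fold and the rise after withdrawal 4.15-fold, a difference of -2.24 ± 0.27 (SE, adjusted p = 0.00069) called under every alternative run, while the controls differed as well (adjusted p = 0.031). Gstm7, a glutathione transferase, had 1.69, 1.49 and 1.71 RPKM with the inhibitor and 2.65, 3.86 and 3.17 RPKM with DMSO, and 3.93 and 6.05 RPKM after withdrawal and 2.37 and 2.51 RPKM with HBEGF. Its difference was -1.46 ± 0.24 (SE, adjusted p = 0.0047, 0.0013 to 0.056 over the alternatives). Rflnb and Vasn followed with differences of -1.28 and -1.04 (adjusted p = 0.0029 and 0.0050). Ptms, parathymosin, had a difference of -1.30 (adjusted p = 0.020, 0.0014 to 0.12 over the alternatives), and its controls differed (adjusted p = 0.025). Its call was lost without HBEGF replicate 1 (adjusted p = 0.115), withdrawal replicate 1 (0.0594) or withdrawal replicate 2 (0.0544).

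**Figure D4:**
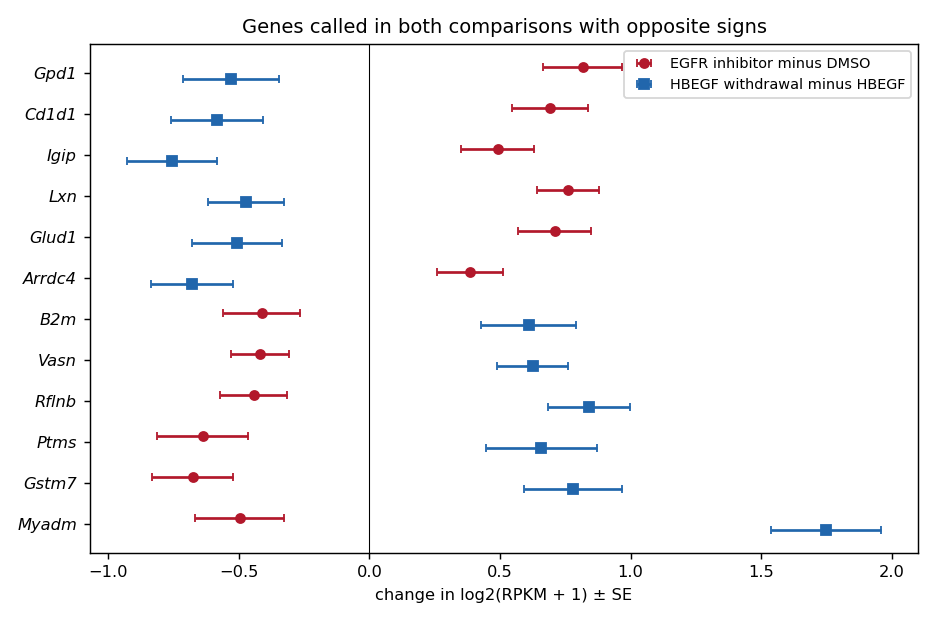
Change in log2(RPKM + 1) with SE for the 12 named genes that were called in both comparisons with opposite signs, EGFR inhibitor minus DMSO (circles) and HBEGF withdrawal minus HBEGF (squares). The top 6 genes are above 0 with the inhibitor and below 0 after withdrawal, the bottom 6 the reverse, and Myadm has the widest gap.

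Among the genes that rose more, or only, after withdrawal were markers of cells other than astrocytes. Lyz2 (chr10:117277331-117282321, minus strand), the lysozyme of macrophages and microglia, had 1.65, 4.04 and 1.94 RPKM with the inhibitor and 0.412, 0.601 and 0.633 RPKM with DMSO. It had 10.4 and 23.5 RPKM after withdrawal and 0 and 0.164 RPKM with HBEGF. It rose in both experiments, and the withdrawal libraries lay above all others though they differed from each other more than 2-fold. The difference was -2.81 ± 0.41 (SE, adjusted p = 0.0015, 0.00034 to 0.071 over the alternatives). All 5 tested microglial markers had differences below 0 (median -0.86, against 0.081 over all genes). Lyz2 was the one called (20%, against 0.556% of all genes called lower). The filter for testing could be passed through the withdrawal libraries alone, which favours differences below 0. The 20 markers summed to 7.27 to 11.7 RPKM with the inhibitor and 2.24 to 2.78 RPKM with DMSO, and to 22.5 to 40.9 RPKM after withdrawal and 1.32 to 1.92 RPKM with HBEGF.

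Mobp, a protein of compact myelin, appeared after withdrawal only. It was at 0, 0.0105 and 0 RPKM with the inhibitor and at 0, 0.0283 and 0.00765 RPKM with DMSO, and at 1.77 and 3.49 RPKM after withdrawal and 0.0445 and 0.0206 RPKM with HBEGF. The difference was -1.78 ± 0.23 (SE, adjusted p = 0.00074, 4e-06 to 0.057 over the alternatives). Of 5 tested oligodendrocyte markers 3 were called lower (60%, against 0.556% of all genes), Mobp, Mag and Mbp, and the median was -1.017 against 0.081 over all genes. Here too the filter could be passed through the withdrawal libraries alone. The 13 markers summed to 7.73 to 8.14 RPKM with the inhibitor and 3.87 to 5.93 RPKM with DMSO, and to 30.0 to 31.7 RPKM after withdrawal and 9.82 to 19.6 RPKM with HBEGF. Mbp, myelin basic protein, was also lower in DMSO than in HBEGF (adjusted p = 0.0034). Its difference was -1.15, and it was positive in the voom fits. The Mbp call was lost without withdrawal replicate 2 (adjusted p = 0.0534), and the Mag call (difference -1.02, adjusted p = 0.014, 0.00018 to 0.33 over the alternatives) without that library (0.0590) or HBEGF replicate 2 (0.0684).

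Sums of the other marker lists differed between groups to unlike extents. The 12 pericyte and fibroblast markers summed to 4.11 to 5.67 RPKM with the inhibitor and 2.49 to 3.71 RPKM with DMSO, and to 13.7 to 19.1 RPKM after withdrawal and 3.57 to 4.56 RPKM with HBEGF. The summed level of the 12 markers of oligodendrocyte precursors went the other way, at 135 to 158 RPKM with the inhibitor and 339 to 434 RPKM with DMSO. It was 101 to 111 RPKM after withdrawal and 407 to 434 RPKM with HBEGF. Single members did not all follow the sum. Of the 8 tested, 3 were called lower and 2 higher with the inhibitor (median change 0.176). After withdrawal 5 were called lower and none higher (median change -0.495). In the difference 2 of the 8, Pdgfra and Bcan, were called higher (25%, against 1.27% of all genes). The Pdgfra call was lost without any single library except withdrawal replicate 2 (adjusted p up to 0.16 over the alternatives). The 21 neuron markers summed to 23.6 to 29.0 RPKM with the inhibitor and 18.6 to 22.9 RPKM with DMSO, and to 26.3 to 29.5 RPKM after withdrawal and 11.1 to 19.2 RPKM with HBEGF. The 12 endothelial markers summed to at most 0.535 RPKM in any of the 10 libraries and the inhibitor and DMSO sums overlapped. The 6 erythrocyte markers, of which 5 were at 0 in all libraries of each group, summed to at most 0.288 RPKM, with overlapping sums in both experiments. The part of other cells in the genes described here was not tested.

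Of 15 tested genes of motile cilia 14 rose in each treatment. Tppp3, a tubulin-binding protein of ciliated and other glial cells, had 5.79, 4.17 and 5.67 RPKM with the inhibitor and 1.10, 1.12 and 1.39 RPKM with DMSO. It had 11.6 and 11 RPKM after withdrawal and 0.605 and 0.406 RPKM with HBEGF. The rises were 4.34-fold and 22.4-fold, all 4 groups were apart, and the difference of -1.55 ± 0.19 (SE, adjusted p = 0.00069) was called under every alternative run. Zmynd10, an assembly factor of ciliary dynein, averaged 1.13 ± 0.231 RPKM with the inhibitor and 0.283 ± 0.0656 RPKM with DMSO (SD, n = 3 each), and 2.76 ± 0.130 RPKM after withdrawal and 0.077 ± 0.0637 RPKM with HBEGF (SD, n = 2 each). Its difference was -1.08 ± 0.19 (SE, adjusted p = 0.0078, 0.00084 to 0.095 over the alternatives). These 2 of the 15 were called lower (0.556% of all genes) and none higher, and the median difference was -0.439. The 10 markers of ependymal and choroid cells summed to 17.9 to 21.7 RPKM with the inhibitor and 2.82 to 3.34 RPKM with DMSO, and to 34.5 to 37.7 RPKM after withdrawal and 4.59 to 6.24 RPKM with HBEGF, and their part in the cilium genes was not tested.

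Mmp2, Serping1 and Gas6 encode secreted proteins and had lower differences. Of 18 tested matrix and proteoglycan genes, Mmp2 and Lama5 were called lower and Bcan higher (16.7% called, against 1.83% of all genes). Of 20 tested reactive astrocyte genes 2, Serping1 and H2-D1, were called lower (10%, against 0.556% of all genes) and none higher. The median of these 20 was -0.219, against 0.081 over all genes. Mmp2, a gelatinase of the extracellular matrix, had 0.710, 0.459 and 0.517 RPKM with the inhibitor and 0.405, 0.408 and 0.409 RPKM with DMSO, and 2.12 and 1.42 RPKM after withdrawal and 0.133 and 0.119 RPKM with HBEGF. It rose after withdrawal only, a difference of -1.14 ± 0.17 (SE, adjusted p = 0.0019, 6.5e-06 to 0.064 over the alternatives). Serping1, the C1 inhibitor of complement, rose in both, to 0.660 ± 0.218 RPKM with the inhibitor against 0.0994 ± 0.0179 RPKM with DMSO (SD, n = 3 each) and to 2.87 ± 0.590 RPKM after withdrawal against 0.160 ± 0.135 RPKM with HBEGF (SD, n = 2 each). Its difference was -1.15 ± 0.19 (SE, adjusted p = 0.0047, 0.00013 to 0.21 over the alternatives). Gas6, a ligand of the TAM receptors in engulfment, rose 1.93-fold with the inhibitor and 5.14-fold after withdrawal (difference -0.86, adjusted p = 0.0083, 0.0018 to 0.12 over the alternatives).

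The class I histocompatibility gene H2-D1 had 5.51, 6.04 and 5.05 RPKM with the inhibitor and 3.84, 4.72 and 4.18 RPKM with DMSO, and 8.40 and 8.54 RPKM after withdrawal and 3.69 and 2.40 RPKM with HBEGF. It rose in both experiments, and the difference was -0.93 ± 0.16 (SE, adjusted p = 0.0056, 0.00089 to 0.11 over the alternatives). B2m, the light chain of class I molecules, fell with the inhibitor, to 13.1 ± 0.630 RPKM against 17.8 ± 0.920 RPKM with DMSO (SD, n = 3 each), and rose after withdrawal, to 21.4 ± 4.01 RPKM against 13.6 ± 0.457 RPKM with HBEGF (SD, n = 2 each). Its difference of -1.02 (adjusted p = 0.031, 0.0033 to 0.12 over the alternatives) was lost without any single library except inhibitor replicate 3 and withdrawal replicate 2. Of 14 tested interferon and class I genes these 2 were called lower (14.3%, against 0.556% of all genes) and none higher. The median was -0.498, against 0.081 over all genes.

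**Figure D5:**
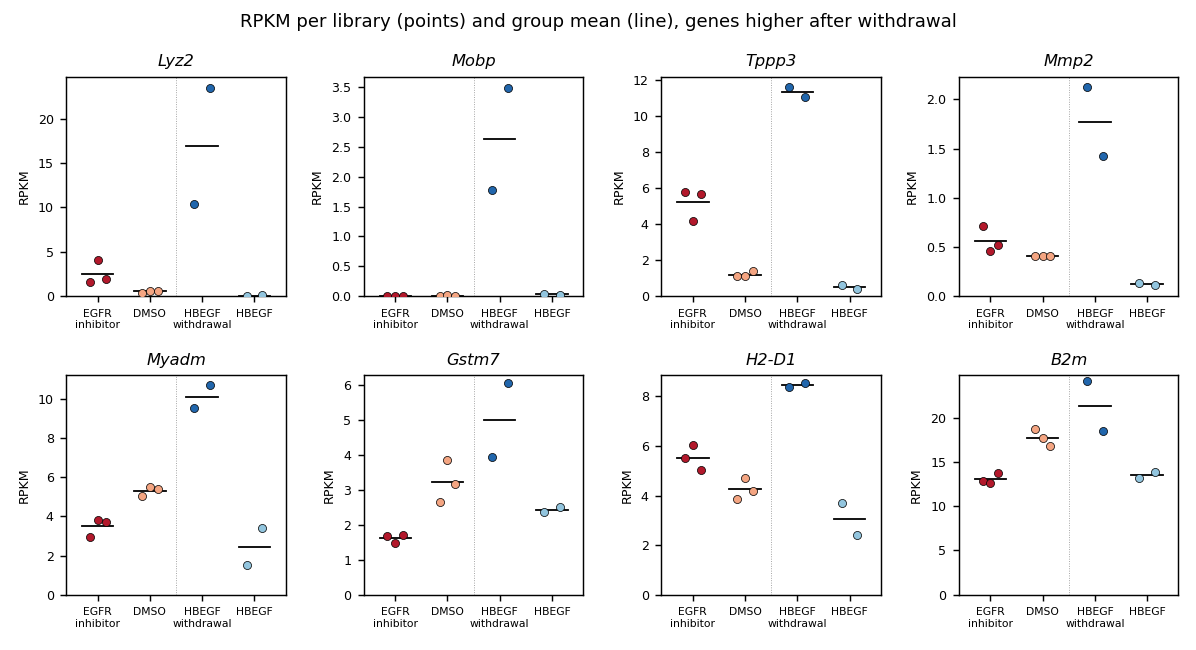
RPKM of 8 genes with a lower difference in each of the 10 libraries (points) with the group mean (line), the inhibitor left of DMSO and withdrawal left of HBEGF, on axes that start at 0. The withdrawal mean is the highest of the 4 groups in each panel, and Mobp is at or near 0 in all libraries but those after withdrawal.

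Chosen after their values were seen, 4 more genes rose after withdrawal and were not called with the inhibitor. Fmod, the matrix proteoglycan fibromodulin, had the smallest adjusted p of the difference (-1.86 ± 0.18, SE, adjusted p = 8e-05), at 2.95 and 3.52 RPKM after withdrawal against 0.198 and 0.0445 RPKM with HBEGF. With the inhibitor it had 0.0467, 0.151 and 0 RPKM against 0.0143, 0.0408 and 0.011 RPKM with DMSO. Gpnmb, a glycoprotein of phagocytes and other cells, had a difference of -1.43 ± 0.18 (SE, adjusted p = 0.00074), and both were called under each alternative that tested them. Ace, the angiotensin-converting enzyme, had a difference of -1.25 (adjusted p = 0.0045, 5.3e-05 to 0.095 over the alternatives). Mapk3, which encodes the ERK1 kinase, averaged 7.23 ± 0.122 RPKM with the inhibitor and 8.71 ± 0.666 RPKM with DMSO (SD, n = 3 each), and 11.1 ± 1.33 RPKM after withdrawal and 6.86 ± 1.35 RPKM with HBEGF (SD, n = 2 each), a difference of -0.87 ± 0.15 (SE, adjusted p = 0.0047, 0.0014 to 0.090 over the alternatives).

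Of 10 tested genes of the mitochondrial genome, mt-Rnr1 was called lower and mt-Nd3 higher (20% called, against 1.83% of all genes). The median difference was 0.048, against 0.081 over all genes. The mitochondrial 12S ribosomal RNA gene mt-Rnr1 averaged 39172 ± 2696 RPKM with the inhibitor and 31913 ± 766 RPKM with DMSO (SD, n = 3 each), and 76434 ± 3616 RPKM after withdrawal and 27866 ± 1332 RPKM with HBEGF (SD, n = 2 each). Its difference was -1.16 ± 0.20 (SE, adjusted p = 0.0058, 0.0012 to 1 over the alternatives), and it was 0 after quantile normalization. The complex I subunit gene mt-Nd3 had 0.990, 2.40 and 0.999 RPKM with the inhibitor and 0, 0.432 and 0 RPKM with DMSO, and 0 and 0 RPKM after withdrawal and 0.370 and 0.472 RPKM with HBEGF. These levels are near the floor, below 1 RPKM in all libraries but inhibitor replicate 2. It was called higher with the inhibitor only, a difference of 1.59 ± 0.40 (SE, adjusted p = 0.049, 0.041 to 0.14 over the alternatives). The call was lost after median-of-ratios scaling (adjusted p = 0.0520) and without any single library except DMSO replicate 2.

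Rpl15, a protein of the large ribosomal subunit that overlaps Nkiras1, had 3.66, 4.62 and 6.31 RPKM with the inhibitor and 9.79, 5.84 and 4.26 RPKM with DMSO, and 13.6 and 19.9 RPKM after withdrawal and 5.47 and 5.14 RPKM with HBEGF. The withdrawal libraries alone were high, and the difference was -1.81 ± 0.35 (SE, adjusted p = 0.011, 0.0017 to 0.14 over the alternatives), a call lost without withdrawal replicate 2 (0.0514). Rpl15 was the single call among 51 tested ribosomal protein genes (2%, against 1.83% of all genes). Their median difference was 0.245, against 0.081 over all genes. Cox6b2, a subunit of cytochrome c oxidase known from testis, had a difference of -1.82 ± 0.37 (SE, adjusted p = 0.015, 0.0029 to 0.14 over the alternatives). That call was lost without HBEGF replicate 1 (adjusted p = 0.0570) or withdrawal replicate 1 (0.0756). Gng3, a G protein subunit of neurons that overlaps Bscl2, had a difference of -1.56 ± 0.33 (SE, adjusted p = 0.019, 0.0026 to 0.13 over the alternatives). It was lost without DMSO replicate 3 (adjusted p = 0.0528), HBEGF replicate 2 (0.0867), withdrawal replicate 1 (0.0594) or withdrawal replicate 2 (0.0510). Of 7 tested neuron markers Gng3 was called lower and Map2 higher (28.6% called, against 1.83% of all genes). Among these markers 4 differences were above 0, and the median was 0.573 against 0.081 over all genes. Map2, a microtubule-associated protein of dendrites, rose with the inhibitor only (difference 0.60 ± 0.14, SE, adjusted p = 0.037, 0.0057 to 0.12 over the alternatives). That call was lost after median-of-ratios scaling (adjusted p = 0.0937) and without any single library except inhibitor replicate 3 and withdrawal replicate 2.

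No tested gene of mitosis, DNA replication or cholesterol synthesis was called in the difference, and most of them fell in both treatments. Of 50 tested mitosis genes 49 were called lower with the inhibitor and 33 after withdrawal, and 1 was called higher after withdrawal. The median changes were -1.506 and -1.086, and all 50 differences were below 0 with a median of -0.398. In that list HBEGF replicate 1 was the low control named above. Mki67, a marker of cycling cells, had 9.41, 8.52 and 8.24 RPKM with the inhibitor and 47.9, 53.7 and 58.2 RPKM with DMSO, and 5.92 and 4.77 RPKM after withdrawal and 12 and 59.6 RPKM with HBEGF. Its difference was -0.33 with a 95% interval from -2.20 to 1.54 (adjusted p = 0.91), so a difference of several-fold either way was not detectable with these controls. Over the alternatives the Mki67 difference ran from -1.44 to 0.783, so its sign was not fixed. Of 46 DNA replication genes 44 fell with the inhibitor and 43 after withdrawal, and the median difference was 0.119, near that of all genes. Of 26 cholesterol synthesis genes 24 fell with the inhibitor and 20 after withdrawal, 24 differences were below 0 with a median of -0.509, and none was called.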

How the data were processed

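Per the submitters' processing notes, the authors used STAR, HTSeq, edgeR and limma with GRCm38; what each tool did, the annotation and the strandedness are not stated in these notes. The deposited values are RPKM for 54429 entries in 25 libraries. Length was the whole gene span, introns included, so levels of different genes were not compared. Symbols matched GENCODE M21 or current gene names for 98.8%. Values equalled whole reads for 99.0 to 99.3% of low entries (up to 20 reads, within 0.1), which gave 4010268 to 9691449 reads per library.

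Genes with at least 1 RPKM in at least 2 libraries (13850) were fitted with limma 3.58.1 in R 4.3.3 on log2(RPKM + 1), a scale that understates changes of low genes. The 9 groups of the 25 libraries each had a mean and shared 1 estimate of the spread (16 residual degrees of freedom, trend and robust empirical Bayes). All adjusted p-values in the text come from limma, by Benjamini and Hochberg within a contrast, called below 0.05. The code was tested on simulated data. Other software was Python 3.11.15, pandas 2.3.3, numpy 2.4.6, scipy 1.17.1 and matplotlib 3.10.9.

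Members and the 44 gene lists were chosen with earlier results of these data known, so list counts are descriptions. A gene could pass the filter through a single group, so the tested members of a list may favour the group where they are high. Named were up to 12 genes per direction by size (called, also after median-of-ratios scaling, at least 1 in log2 and 5 RPKM, libraries apart, no predicted, clone or short RNA symbols), up to 6 per direction with opposite signs (at least 2 RPKM), up to 4 per list by p, and some genes set with the lists. Not all are printed. Folds are ratios of mean RPKM. The alternatives, 23 in all, changed the pseudocount, filter, scaling, libraries in the fit, replicate block, empirical Bayes, weights and test (voom on recovered reads), or left out each library, and 1 of them, voom with median-of-ratios scaling, was added after seeing the data. The labels do not say that equal replicate numbers mark a shared origin.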

Additional observations from a re-analysis of the deposited data

How the results depend on the processing

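The difference was called for 253 genes, 176 higher and 77 lower. Totals (higher, lower) were 696 (297, 399) with no filter, 100 (80, 20) at 5 RPKM, 45 (30, 15) from the 10 libraries alone, 384 (282, 102) with voom and 257 (114, 143) with voom after median-of-ratios scaling. They were 218 (104, 114) after median-of-ratios scaling, 206 (102, 104) after quantile normalization and 223 (100, 123) without mitochondrial genes in the scaling. Leaving out 1 library gave 108 to 220 (62 to 145 higher, 46 to 75 lower), lowest without HBEGF replicate 1. Of the 253, 61 were called without each library in turn, 24 under 3 scalings, voom and the 10-library fit, and 19 under both. For most of these shifts the cause was not tested; the filters test other numbers of genes, and the smaller fits have fewer samples.

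At 5 RPKM the inhibitor change was called for 2069 genes and the withdrawal change for 1882. Controls differed in 144 genes with no filter, 36 at 5 RPKM, 8 from 10 libraries, 126 with array weights, 275 with voom, 282 with voom after scaling, and 4 to 342 without 1 library (4 without HBEGF replicate 1, 342 without replicate 2). Treated groups differed in 2491, 554, 858 and 882 genes in the first 4 of these, and in 789 to 1487 without 1 library. Opposite signs numbered 43, but 20 at 5 RPKM, 28 after quantile normalization, 28 without mitochondrial genes, 11 from 10 libraries and 26 to 40 without 1 library. The inhibitor change was called for 4565 to 5440 genes and the withdrawal change for 3165 to 4452 without 1 library. The median difference over genes of at least 5 RPKM was 0.144 as deposited and 0.0295 after median-of-ratios scaling.

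Same-numbered libraries showed little shared deviation from their group means (r = 0.001, 0.012 and -0.001 between inhibitor and DMSO, 0.037 between withdrawal and HBEGF). With 2 libraries per group the deviations mirror each other, so the last value says little. Whether equal numbers mark a shared origin is not settled by these values. With the replicate block, at 9 residual degrees of freedom, 63 genes (41 higher, 22 lower) were called, 57 of them among the 253, with 0 between controls, 166 between treated groups and 17 of opposite sign.

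Of 54 named called genes, 50 were called after median-of-ratios scaling, 35 without HBEGF replicate 1 and 16 from the 10 libraries. The sign of Mbp turned with voom (0.29) and with voom after median-of-ratios scaling (0.14), and mt-Rnr1 was at 0 after quantile normalization. The 95% interval of the difference lay within 1 of 0 on the log2 scale for 55.1% of tested genes.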
